A study of Mus musculus with 12 samples.

Results

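The genes encoding the NF-κB subunits, and 5 genes listed as NF-κB inhibitors, were followed in RNA-Seq libraries of mouse bone marrow–derived macrophages (BMDMs). The 10 genes were taken by symbol from a list of the family, drawn up with earlier results of these data known: the 5 subunits *Rela*, *Rel*, *Relb*, *Nfkb1*, and *Nfkb2*, and the 5 inhibitors *Nfkbia*, *Nfkbib*, *Nfkbie*, *Nfkbiz*, and *Tnfaip3*. They are 10 of 43626 gene identifiers in the count files, and all 10 passed the filter on low counts that left 14308 genes for testing. BMDMs, macrophages grown out of bone marrow in culture, had been incubated in the study for 6 h with PBS alone (labelled PBS), with 100 µg/mL of the human milk oligosaccharide 3′sialyllactose (3′SL, labelled HMO), with 10 ng/mL of the bacterial cell wall component lipopolysaccharide (LPS), or with LPS and 3′SL together (labelled LPS+HMO). Each condition had 3 libraries, 12 in all, and no condition carried a genetic change. The strain of the mice that gave the marrow is not given in the sources used here. The labels do not say whether the libraries of a condition came from separate mice or cultures, although the study describes its RNA-Seq samples as independent biological ones. The p-values measure the spread between these libraries.

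NF-κB is a family of dimeric transcription factors that drives much of the inflammatory gene response of macrophages to bacterial products sensed by Toll-like receptors. In resting cells the dimers are held in the cytoplasm by IκB proteins. When the IκB kinase complex marks an IκB for degradation, the dimers enter the nucleus, where they also switch on genes for their own subunits and inhibitors, so that the response limits itself. *Rela* encodes p65, *Rel* encodes c-Rel, and *Relb* encodes RelB, the subunits that carry activation domains. *Nfkb1* and *Nfkb2* encode precursors that are processed to DNA-binding partners and that, unprocessed, retain dimers as IκB proteins do. *Nfkbia*, *Nfkbib*, and *Nfkbie* encode the classical inhibitors IκBα, IκBβ, and IκBε. *Nfkbiz* encodes IκBζ, a nuclear protein that binds NF-κB on chromatin and is required for a set of secondary response genes, and *Tnfaip3* encodes the ubiquitin-editing enzyme A20, which acts upstream of the kinase complex. *Nfkbiz* is counted with the inhibitors here as the list places it, so a change of its transcript need not mean more or less inhibition.

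The genes lie apart in the mouse genome (GRCm38, GENCODE M21 annotation, gene spans). Among the subunits, *Rela* (ENSMUSG00000024927.7) lies at chr19:5637483-5648130 and *Nfkb2* (ENSMUSG00000025225.10) at chr19:46304320-46312385, on the same chromosome. *Rel* (ENSMUSG00000020275.8) lies at chr11:23736847-23770970, *Relb* (ENSMUSG00000002983.12) at chr7:19606217-19629438, and *Nfkb1* (ENSMUSG00000028163.13) at chr3:135584655-135691547. Among the inhibitors, *Nfkbia* (ENSMUSG00000021025.7) lies at chr12:55489410-55492647, *Nfkbib* (ENSMUSG00000030595.11) at chr7:28758251-28767512, *Nfkbie* (ENSMUSG00000023947.7) at chr17:45555703-45563169, *Nfkbiz* (ENSMUSG00000035356.12) at chr16:55811375-55838899, and *Tnfaip3* (ENSMUSG00000019850.7) at chr10:19000910-19015657. Exons of *Nfkb2* overlap *Psd* and *AC114539.1* on the other strand, over 830 bases, and exons of *Nfkbib* overlap *Ccer2* and *Sirt2* on the other strand, over 356 bases. The library kit marked the strand, but whether counting used it is not given in the sources used here, so counts of these 2 genes may include reads of their neighbors. Of the 50-base words in their transcripts, sought on both strands, 14.9% for *Nfkb2* and 12.6% for *Nfkbib* also occur in other genes (2 and 1 other genes). At most 0.674% do for each of the other 8. A search on both strands can also find words of the overlapping exons, so these shares are not separate from the overlaps above.

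Because the members rose together with LPS, the DNA before their transcription starts was examined for a κB motif, read as GGGA, any 4 bases, and CC, and searched on both strands of RefSeq promoter windows (GRCm38.p6, 250 bases before to 50 bases after the start of each gene). Windows were at hand for 7 of the 10 members: *Rela*, *Rel*, *Nfkb2*, *Nfkbia*, *Nfkbib*, *Nfkbie*, and *Tnfaip3*. The motif occurred in a window of 5 of these 7 genes, and in a window of 22.9% of all 27025 genes in the same table. By window, 8 of the 10 windows of these members held it, against 20.7% of all 32851 windows. Of the members with several windows, only *Nfkb2* had windows that overlapped, so that 1 match, GGGACTTTCC, was counted in more than 1. In *Nfkb2*, the palindromic match GGGAATTCCC began at -39 from the first start, counted from the first base of the gene with negative numbers before it, and in *Rel* the match GGGAAATCCC began at -92. *Tnfaip3* held GGGACACCCC at -125 from its upstream start, and *Rela* held GGCCTCTCCC at -217, a match on the opposite strand. A match is a description of the letters, and binding was not measured in these libraries. The 250 bases before the start are shown for *Nfkbia*, the member with the highest level, for *Rel*, the member with the lowest, and for *Nfkbie*. *Nfkbie* is a strongly induced member whose window held no match to this pattern, although it holds GGGGGATTCC, which differs from the pattern only at the fourth base. They are written 5′ to 3′ on the strand of the gene, and capitals mark the motif on either strand. *Nfkbia* is chr12:55492648-55492897 (minus strand), *Rel* is chr11:23770970-23771219 (minus strand), and *Nfkbie* is chr17:45555450-45555699 (plus strand).
Nfkbia: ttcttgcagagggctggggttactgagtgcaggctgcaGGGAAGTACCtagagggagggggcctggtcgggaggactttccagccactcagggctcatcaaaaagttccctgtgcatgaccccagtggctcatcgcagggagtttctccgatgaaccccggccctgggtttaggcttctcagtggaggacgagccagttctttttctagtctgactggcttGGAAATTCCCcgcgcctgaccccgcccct
Rel: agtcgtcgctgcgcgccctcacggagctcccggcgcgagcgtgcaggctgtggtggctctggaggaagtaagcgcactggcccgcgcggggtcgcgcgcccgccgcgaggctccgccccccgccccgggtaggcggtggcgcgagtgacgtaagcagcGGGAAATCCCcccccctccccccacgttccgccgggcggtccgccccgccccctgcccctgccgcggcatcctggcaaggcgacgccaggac
Nfkbie: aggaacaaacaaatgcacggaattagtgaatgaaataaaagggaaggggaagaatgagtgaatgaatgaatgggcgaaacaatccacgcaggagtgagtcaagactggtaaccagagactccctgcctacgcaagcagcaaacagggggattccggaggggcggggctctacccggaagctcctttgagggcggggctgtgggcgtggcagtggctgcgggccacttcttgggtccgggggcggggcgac

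Between 20411741 and 26851890 reads were counted on genes per library (median 23375851). The macrophage label held: all 8 macrophage marker genes were detected, with a summed level of 17640 to 30044 CPM (read counts scaled to a common library size, corrected with TMM factors), whereas T and B cell markers summed to at most 0.675 CPM and *Cd3e* and *Cd3g* had no reads. After the condition means were removed, the libraries fell into 3 sets of 4, 1 library of each condition in each set, with a mean residual correlation of 0.596 within sets and -0.346 between them. Sets were found from the values and are not named by the labels. Libraries of a condition are numbered here in the order of the deposited samples, and replicates 1, 2, and 3 of each condition fell in sets 1, 2, and 3. The sets differed in markers of other cells: stromal markers summed to 525 to 611 CPM in set 1, 22.2 to 40.9 CPM in set 2, and 53.7 to 96.2 CPM in set 3, and neutrophil markers, mainly *Ngp*, to 48.6 to 69.4, 81.5 to 146, and 112 to 321 CPM. The part of these cells in the results was not tested. In bulk RNA, more cells of a type and more RNA per cell cannot be told apart. Tests used edgeR's quasi-likelihood fit on the counts of all 12 libraries, and calls needed at least a 1.5-fold difference and p under 0.05 after Benjamini-Hochberg adjustment over all 14308 genes.

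Unstimulated BMDMs already carried all 10 transcripts. To compare genes with each other, levels were divided by the length of the exons, giving CPM per kb. With PBS, the classical inhibitor *Nfkbia* was highest at 34.6 ± 14.3 CPM per kb (SD, n = 3), followed by *Rela* at 21.5 ± 1.5 and *Nfkb2* at 10.8 ± 3.13. *Nfkbib*, *Nfkb1*, and *Tnfaip3* lay between 9.87 and 8.59 CPM per kb. *Relb*, *Nfkbie*, *Nfkbiz*, and *Rel* were lowest, at 3.94 ± 1.04, 3.76 ± 2.12, 2.15 ± 0.534, and 1.88 ± 0.269 CPM per kb. Of the 9 pairs of neighbors in this order, 5 had libraries that overlapped: *Nfkb2* and *Nfkbib*, *Nfkb1* and *Tnfaip3*, and each step from *Relb* down to *Rel*. The place of *Nfkb1* rests on the length used, because the union of its annotated exons is 12061 bases and its principal isoform 4117 bases. With the principal isoform lengths, *Nfkb1* was at 25.7 CPM per kb with PBS, level with *Rela* at 24.4, and their libraries overlapped. By their means, *Nfkbia* stayed first and *Rel* last with both lengths in all 4 conditions, but with principal isoform lengths the libraries of *Nfkbia* overlapped those of *Nfkb1* with PBS and with 3′SL. Without LPS, the libraries of *Rel* overlapped those of *Nfkbiz* with both lengths.

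LPS raised all 10 members. All 10 were called higher with LPS than with PBS, where 18.3% of all genes tested were called higher, and all 10 had no overlap between the 3 LPS and the 3 PBS libraries, against 27.3% of genes that were higher without overlap. The median log2 fold change was 3.79 for the 5 inhibitors, 2.43 for the 5 subunits, and -0.06 for all genes tested.

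**Figure D1:**
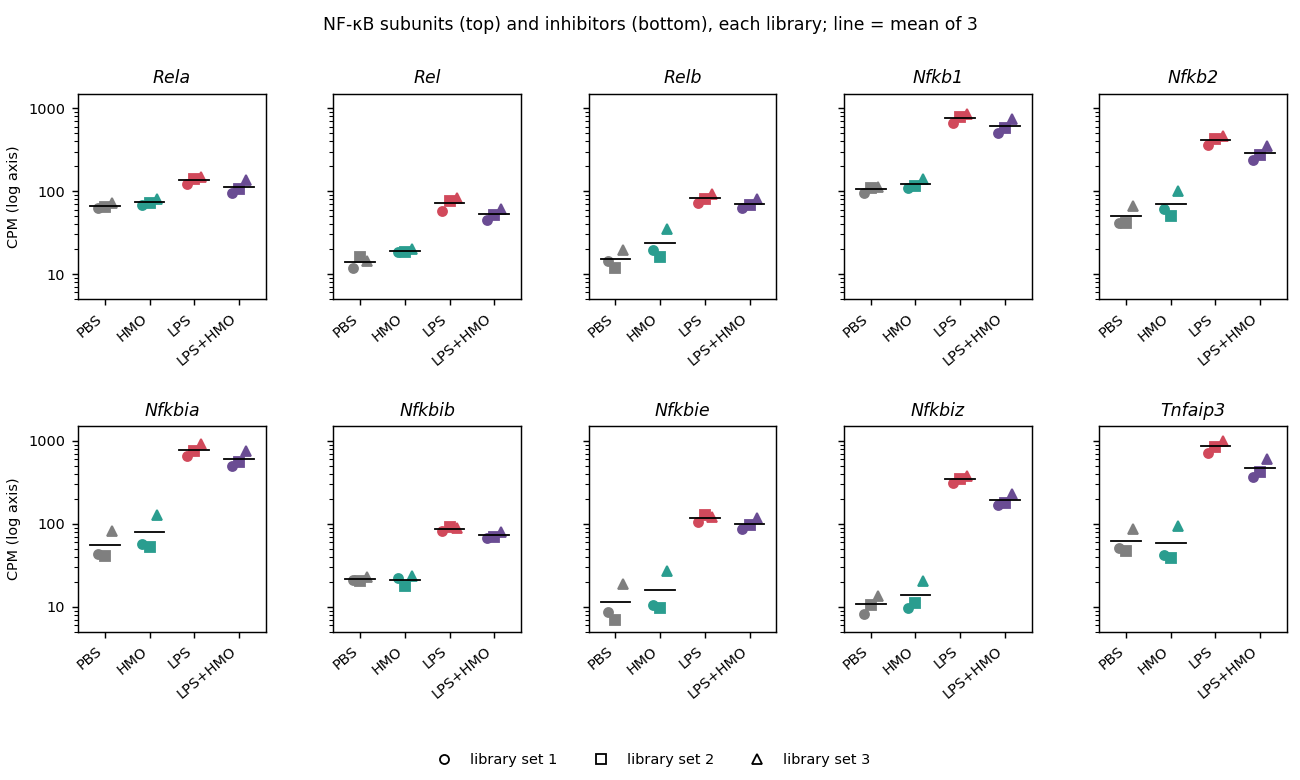
Level of each NF-κB subunit (top row) and inhibitor (bottom row) in CPM on a log axis, with 1 point per library, 3 libraries for each of PBS, HMO (3′SL), LPS, and LPS+HMO, symbols for the library set, and a line at the mean. All LPS and LPS+HMO libraries lie above all PBS and HMO libraries for every gene. The set 3 libraries of PBS and HMO (triangles) lie highest within their condition for every gene except *Rel* with PBS.

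*Nfkbiz*, the nuclear IκBζ, rose most. It was at 8.21, 10.6, and 13.6 CPM in the PBS libraries and at 313, 349, and 376 CPM in the LPS libraries (sets 1, 2, and 3 in this order throughout). This was a 32.1-fold increase (log2 fold change 5.00 ± 0.31, SE; edgeR adjusted p = 1.18e-06), above 98.6% of all genes tested. *Nfkbia*, the IκBα gene, was at 43.5, 41.3, and 82.1 CPM with PBS and 652, 757, and 913 CPM with LPS. *Tnfaip3*, encoding A20, was at 51.7, 47, and 87.6 CPM with PBS and 721, 858, and 1005 CPM with LPS. Both rose 13.9-fold, with log2 fold changes of 3.80 ± 0.40 and 3.79 ± 0.39 (edgeR adjusted p = 2.72e-05 and 2.26e-05). *Nfkbie*, encoding IκBε, went from 8.64, 6.88, and 18.9 CPM to 106, 126, and 120.1 CPM, and *Nfkbib*, encoding IκBβ, from 20.9, 20.5, and 22.9 CPM to 81, 91.7, and 89.9 CPM. Their increases were 10.2-fold and 4.09-fold (log2 fold changes 3.36 ± 0.46 and 2.03 ± 0.12, edgeR adjusted p = 0.000146 and 7.2e-07). IκBβ was thus the least induced of the inhibitors and had the tightest libraries.

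The unstimulated libraries of set 3 stood above those of the other sets, with PBS and with 3′SL, for every member except *Rel* with PBS. The gap was small for *Nfkbib*, at 22.9 CPM in the PBS library of set 3 against 20.9 and 20.5 CPM. *Nfkbie* was at 18.9 CPM in the PBS library of set 3 against 8.64 and 6.88 CPM in the others, and *Nfkbia* at 82.1 CPM against 43.5 and 41.3 CPM. Within sets, the increase of *Nfkbie* with LPS on the log2 scale was accordingly 3.61, 4.20, and 2.67, lowest in set 3, while that of *Nfkbib* was 1.96, 2.16, and 1.98. Within each condition, the summed neutrophil markers were also highest in set 3, a sum made up mainly of *Ngp*. With 3′SL, *Ngp* was at 105.2 CPM in set 3 against 83.1 CPM in set 2. The other neutrophil markers, *Ly6g*, *Mpo*, *Elane*, and *Camp*, were lower in that set 3 library than in set 2. Some macrophage markers were higher in set 3 as well. With PBS, *Cd14* was at 406 CPM in set 3 against 213 and 175 CPM, and *Fcgr1* at 252 CPM against 105 and 111 CPM. *Cd68* and *Mertk* were lower in that library than in the other PBS libraries. The part of other cells, or of any other cause, in the higher levels of set 3 was not tested.

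Among the subunits, the precursor genes responded most. *Nfkb2*, the precursor of p52, was at 41.5, 41, and 66.1 CPM with PBS and 356, 430.2, and 463 CPM with LPS. *Nfkb1*, the precursor of p50, was at 93.7, 110.3, and 114 CPM with PBS and 659.5, 791, and 853 CPM with LPS. They rose 8.4-fold and 7.25-fold (log2 fold changes 3.07 ± 0.29 and 2.86 ± 0.18, edgeR adjusted p = 1.35e-05 and 1.3e-06). *Relb* went from 14.5, 11.7, and 19.7 CPM to 72.3, 81.3, and 93.6 CPM, and *Rel* from 11.9, 15.9, and 14.4 CPM to 58.2, 75.6, and 83.7 CPM. Their increases were 5.38-fold and 5.16-fold (log2 fold changes 2.43 ± 0.28 and 2.37 ± 0.17, edgeR adjusted p = 5.4e-05 and 2.31e-06). *Rela*, the p65 gene, was at 62.9, 64.1, and 71.4 CPM with PBS and 120.4, 140.2, and 147 CPM with LPS, the smallest increase of the 10 at 2.05-fold (log2 fold change 1.04 ± 0.14, edgeR adjusted p = 0.000116). With libraries scaled to total counts instead of TMM factors, which moves the median of all genes to -0.71 on the log2 scale, *Rela* was at 0.38 and under the fold minimum, and the other 9 members were still called higher, as were 10.7% of all genes.

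**Figure D2:**
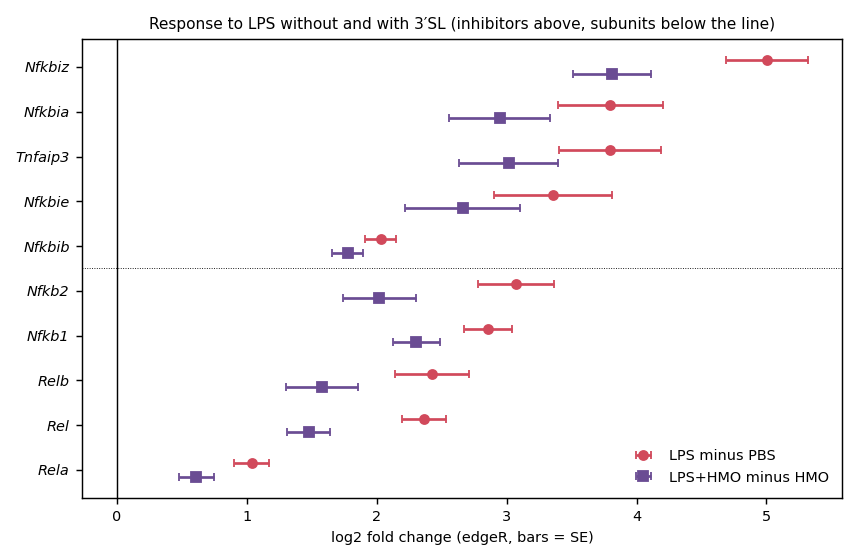
Log2 fold change with LPS in the absence of 3′SL (circles, LPS minus PBS) and in its presence (squares, LPS+HMO minus HMO) for the 10 genes, with bars for the SE of the edgeR fit and the inhibitors above the dotted line. All 20 estimates are above 0, from 0.61 for *Rela* in the presence of 3′SL to 5.00 for *Nfkbiz* in its absence.

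The balance of transcripts moved from subunits to inhibitors with LPS. The summed level of the 5 inhibitors over that of the 5 subunits, in CPM per kb, was 1.13, 1.04, and 1.53 in the PBS libraries and 3.23, 3.14, and 3.38 in the LPS libraries. All 3 LPS libraries were above all 3 PBS libraries. The means were 1.23 ± 0.257 and 3.25 ± 0.121 (SD, n = 3). With 3′SL the ratio was 1.1, 1.02, and 1.63, and with LPS and 3′SL together 3.13, 3.06, and 3.22 (means 1.25 ± 0.329 and 3.14 ± 0.0805). These ranges overlapped those of the conditions without 3′SL. With the 3 classical IκB genes as the only inhibitors, the means were 1.01, 1.07, 2.43, and 2.55, in the order PBS, 3′SL alone, LPS alone, and both, and with principal isoform lengths 0.882, 0.872, 2.06, and 1.93, so the shift with LPS appeared with each choice. *Nfkbia* over *Rela* alone rose from 1.32, 1.23, and 2.19 to 10.3, 10.3, and 11.9. The share of *Rela* in the summed subunits was 46.1% ± 2.74 with PBS and 19.3% ± 0.525 with LPS (32.8% and 12.0% with principal isoform lengths).

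**Figure D3:**
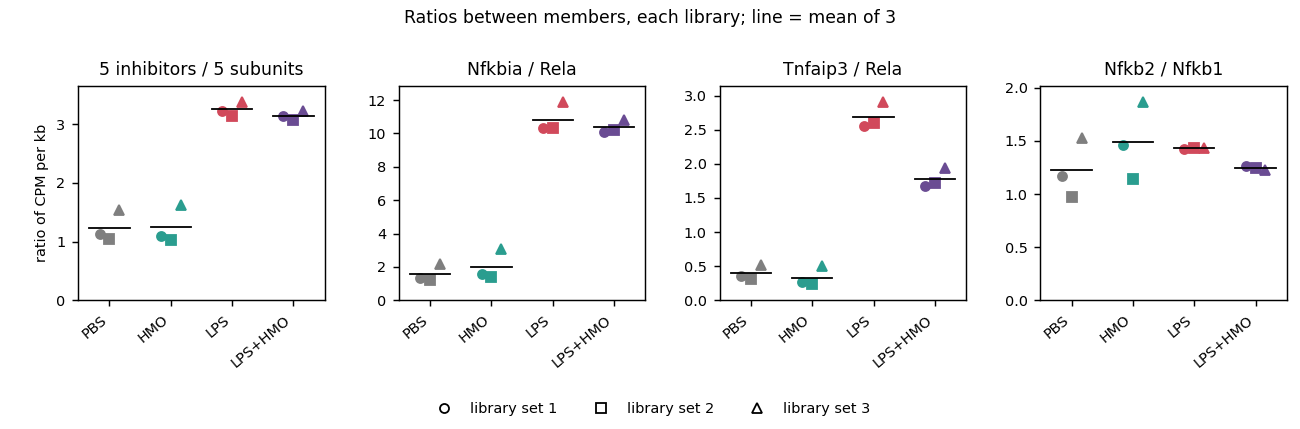
Ratios between members in CPM per kb (exon union length), with 1 point per library, symbols for the library set, and a line at the mean of 3 libraries. The ratio of summed inhibitors to subunits is 1.02 to 1.63 without LPS and 3.06 to 3.38 with LPS, *Tnfaip3* over *Rela* is 2.55 to 2.91 with LPS and 1.67 to 1.94 with LPS+HMO, and *Nfkb2* over *Nfkb1* is 1.42 to 1.43 with LPS and 1.23 to 1.26 with LPS+HMO.

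In order of level, the LPS condition placed *Nfkbia* at 481 ± 81.6 CPM per kb, *Tnfaip3* at 119 ± 19.6, *Nfkb2* at 90.8 ± 12, *Nfkbiz* at 68.9 ± 6.3, and *Nfkb1* at 63.7 ± 8.18. *Rela*, *Nfkbib*, and *Nfkbie* followed at 44.2, 40.4, and 38.5 CPM per kb, with libraries that overlapped from each to the next, and *Relb* and *Rel* came last at 21.2 and 9.71 CPM per kb. *Rela* thus went from the second place with PBS to the sixth with LPS, whereas *Tnfaip3* went from the sixth to the second and *Nfkbiz* from the ninth to the fourth. The libraries of *Tnfaip3* overlapped those of *Nfkb2*, and those of *Nfkbiz* overlapped those of *Nfkb1*. With principal isoform lengths *Rela* went from the third place to the sixth, *Tnfaip3* from the fifth to the second, and *Nfkbiz* from the ninth to the fifth.

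In LPS-activated BMDMs, 3′SL gave lower estimates for all 10 members, but none passed the threshold. LPS + 3′SL against LPS called 0 of the 10 (edgeR), and it called 0.0% of all genes tested, with a lowest adjusted p of 0.0835 over all genes. At an unadjusted p under 0.05, 4 members were lower (*Rel*, *Nfkbib*, *Nfkbiz*, and *Tnfaip3*), as were 3.35% of all genes. DESeq2 called 0 of the 10 and 0.79% of all genes. This comparison uses the same LPS libraries as LPS against PBS, so it is not independent of that comparison. All members were read in the same libraries, so their results are not independent of each other either. The median log2 fold change of the 10 was -0.34, against -0.01 for all genes, with -0.35 for the inhibitors and -0.34 for the subunits. All 10 were lower in every library set, which held for 25.4% of all genes. In 4 members (*Nfkb2*, *Nfkbib*, *Nfkbiz*, and *Tnfaip3*) the 3 LPS + 3′SL libraries were all below the 3 LPS libraries, against 6.5% of all genes.

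*Tnfaip3* and *Nfkbiz* differed most. *Tnfaip3* was at 373, 425, and 614 CPM with LPS + 3′SL, against 721, 858, and 1005 CPM with LPS. The highest library with 3′SL was thus below the lowest without it, and the within-set log2 differences were -0.95, -1.01, and -0.71. The fitted change was -0.87 ± 0.35 (SE), 1.83-fold lower, with an edgeR adjusted p = 0.641 (unadjusted p = 0.0316 in the same fit). *Nfkbiz* was at 167, 181, and 232 CPM with LPS + 3′SL, against 313, 349, and 376 CPM with LPS, also without overlap. Its within-set differences were -0.90, -0.95, and -0.69, and its fitted change was -0.84 ± 0.27, 1.79-fold lower (edgeR adjusted p = 0.429, unadjusted p = 0.00939). When the library sets entered the edgeR fit as a block, *Nfkbiz* and *Tnfaip3* were called lower (adjusted p = 0.00677 and 0.0104), among 0.762% of all genes called lower in that fit. The block fit without set 3 called 3 members lower, with *Nfkb2* as the third, and 1.46% of all genes. Without set 1 or without set 2 it called 0 members lower. The share of all genes called in those fits is not given here, so this 0 cannot be set against it.

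The subunits differed less. *Nfkb2* was at 237, 274, and 349 CPM with LPS + 3′SL, each below its partner of the same set at 356, 430.2, and 463 CPM (fitted change -0.54 ± 0.27, edgeR adjusted p = 0.784, and 0.0564 with the block). *Rel* was at 44.8, 51.2, and 61.4 CPM, against 58.2, 75.6, and 83.7 CPM (fitted change -0.47 ± 0.16, edgeR adjusted p = 0.497, and 0.0372 with the block, at 1.38-fold and so under the fold minimum). Both were lower in each set, and for *Rel* 1 library with 3′SL lay above the lowest without it. *Nfkb1* was at 496, 578, and 746 CPM with LPS + 3′SL, against 659.5, 791, and 853 CPM (fitted change -0.34 ± 0.17). *Rela* was at 94.8, 105, and 134 CPM (-0.28 ± 0.14) and *Relb* at 61.8, 67.8, and 80.3 CPM (-0.24 ± 0.27). All 3 had libraries that overlapped between the conditions. Of the classical inhibitors, *Nfkbia* was at 502, 564, and 761 CPM (-0.35 ± 0.36) and *Nfkbie* at 87.1, 97.7, and 117 CPM (-0.22 ± 0.41), both with overlap. *Nfkbib* was at 68.5, 70, and 79.2 CPM (-0.27 ± 0.11), just below its LPS libraries at 81, 91.7, and 89.9 CPM. *Nfkbie* in set 3 was almost level, at -0.04.

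**Figure D4:**
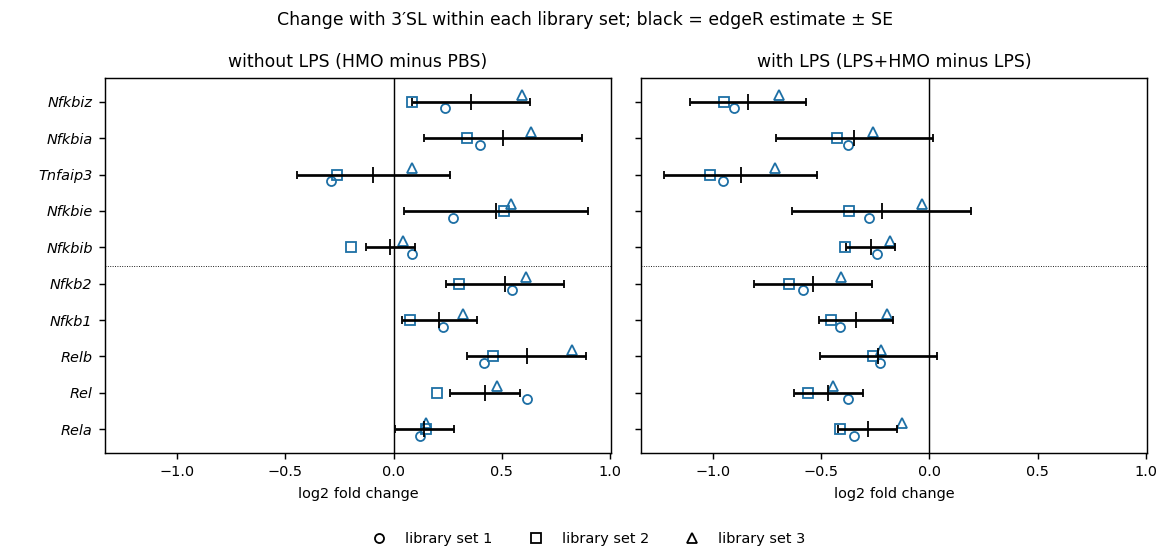
Log2 fold change with 3′SL in each library set (open symbols) and in the edgeR fit (black, bars for the SE), without LPS (left, HMO minus PBS) and with LPS (right, LPS+HMO minus LPS). With LPS all 30 within-set values are below 0, and *Nfkbiz* and *Tnfaip3* are farthest from 0, while without LPS most values are above 0 and the bars of *Nfkbib* and *Tnfaip3* cross it.

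The proportions among members were steadier than the levels within the LPS libraries. *Nfkb2* over *Nfkb1*, in CPM per kb, was 1.42, 1.43, and 1.43 with LPS and 1.26, 1.25, and 1.23 with LPS + 3′SL, without overlap (means 1.43 ± 0.00644 and 1.25 ± 0.0135, SD, n = 3). Without LPS the same ratio spread from 0.977 to 1.53 with PBS and from 1.14 to 1.87 with 3′SL. *Tnfaip3* over *Rela* was 2.55, 2.6, and 2.91 with LPS and 1.67, 1.72, and 1.94 with LPS + 3′SL, again without overlap, whereas *Nfkbia* over *Rela* overlapped (10.3, 10.3, and 11.9 against 10.1, 10.2, and 10.8). *Nfkbia* was 63.3%, 63.3%, and 65.8% of the summed inhibitors with LPS and 68.2%, 68.7%, and 69.6% with LPS + 3′SL. This share also rose without overlap in the absence of LPS, from 56.0%, 55.8%, and 61.8% with PBS to 62.5%, 62.9%, and 68.2% with 3′SL. These ratios are descriptions, and no test was run on them.

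Without LPS, the estimates for 3′SL pointed the other way for most members. 3′SL against PBS called 0 of the 10 (edgeR), 0.0% of all genes tested, with a lowest adjusted p of 0.167, and DESeq2 called 0 of the 10 and 0.615% of all genes. At an unadjusted p under 0.05, *Relb* and *Rel* were higher, as were 6.34% of all genes. *Relb* was at 19.3, 16.1, and 34.8 CPM with 3′SL against 14.5, 11.7, and 19.7 CPM with PBS, with overlapping libraries (log2 fold change 0.61 ± 0.27, edgeR adjusted p = 0.493). *Rel* was at 18.2, 18.2, and 20.1 CPM against 11.9, 15.9, and 14.4 CPM (log2 fold change 0.42 ± 0.16, edgeR adjusted p = 0.45) and was the 1 member of 10 whose libraries did not overlap, where 9.02% of all genes were higher without overlap. Of the 10, 8 were above 0 in the fit, with a median of 0.39, against 0.00 for all genes, of which 50.2% were above 0. *Nfkb2* was at 0.51 ± 0.27, *Nfkb1* at 0.21 ± 0.17, and *Rela* at 0.14 ± 0.14. *Nfkbia*, *Nfkbie*, and *Nfkbiz* were at 0.51 ± 0.36, 0.47 ± 0.42, and 0.36 ± 0.27. *Nfkbib* and *Tnfaip3* were nearest 0 from below, at -0.01 ± 0.11 and -0.09 ± 0.35. These estimates moved when 1 library of set 3 was left out. In set 3 *Nfkbia* was at 127 CPM with 3′SL, against 57.3 and 52.3 CPM in the other 3′SL libraries. With PBS it was at 82.1 CPM in set 3, against 43.5 and 41.3 CPM. Without the 3′SL library of set 3, *Nfkbia* was at -0.06, *Nfkbie* at -0.22, and *Nfkbiz* at -0.08, so that 5 of the 10 were below 0. The subunits stayed above 0 but were closer to it, with *Relb* at 0.18, *Nfkb2* at 0.13, *Nfkb1* at 0.06, *Rela* at 0.04, and *Rel* at 0.34. Leaving out the PBS library of set 3 instead put the 10 between 0.035 and 1.03. Leaving out all of set 3 put them between -0.29 and 0.42, with 2 below 0. Within sets, *Nfkbia* was at 0.400, 0.340, and 0.634, *Nfkbie* at 0.275, 0.509, and 0.541, and *Nfkbiz* at 0.237, 0.087, and 0.595.

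The response to LPS was also measured in the presence of 3′SL, in a comparison that shares no library with LPS against PBS. Both comparisons come from the same fit, and their libraries fall in the same library sets, so they are not fully independent. LPS + 3′SL against 3′SL called all 10 members higher, where 14.3% of all genes were called higher, and no member had libraries that overlapped (22.4% of genes were higher without overlap). The increases were smaller than in the absence of 3′SL for every member in the fit, for example *Nfkbiz* 14-fold instead of 32.1-fold, *Tnfaip3* 8.09-fold instead of 13.9-fold, and *Nfkb2* 4.06-fold instead of 8.4-fold. The inhibitors had a median log2 fold change of 2.95 and the subunits 1.58. *Nfkbia* rose 7.7-fold, *Nfkbie* 6.33-fold, *Nfkb1* 4.95-fold, *Nfkbib* 3.43-fold, *Relb* 2.99-fold, and *Rel* 2.79-fold. *Rela*, at 0.61 ± 0.14, was just past the fold minimum, and its call was lost with total-count scaling (0.12, where the median of all genes was -0.54), without set 2 or set 3, without the 3′SL library of set 1 (0.57), and without the LPS + 3′SL library of set 3 (0.46).

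The difference between the responses was tested as the interaction of LPS and 3′SL, which uses all 12 libraries and so shares them with each comparison above. It called 0 of the 10 members, 0.0% of all genes tested, with edgeR (lowest adjusted p over all genes 0.309), and DESeq2 called 0 of the 10 and 0.308% of all genes. At an unadjusted p under 0.05, 6 of the 10 were lower, all 5 subunits and *Nfkbiz*, as were 3.8% of all genes. The median was -0.81 on the log2 scale, against -0.01 for all genes, and all 10 were below 0 in every library set, which held for 24.8% of all genes. *Rel* had the lowest p, with -0.89 ± 0.23 (adjusted p = 0.579) and within-set values of -0.99, -0.76, and -0.93. *Nfkbiz* was at -1.19 ± 0.38 with within-set values of -1.14, -1.04, and -1.29, and *Nfkb2* at -1.05 ± 0.39 with -1.13, -0.95, and -1.02. *Tnfaip3*, among the members most different with LPS, was at -0.78 ± 0.50 with -0.66, -0.75, and -0.80. *Nfkbia* was at -0.85 ± 0.51, *Relb* at -0.85 ± 0.38, *Nfkbie* at -0.69 ± 0.59, *Nfkb1* at -0.55 ± 0.24, and *Rela* at -0.43 ± 0.19. *Nfkbib* was nearest 0, at -0.26 ± 0.16. All 10 were also below 0 with total-count scaling, which moves the median of all genes to 0.17. With the library sets as a block, *Nfkb2*, *Rel*, and *Nfkbiz* were called lower (edgeR adjusted p = 0.0223, 0.0161, and 0.0161), among 1.29% of all genes. Without set 3 that fit called 7 members and 2.13% of all genes. Without set 1 or set 2 it called 0 members, and the share of all genes called there is not given here. Without the 3′SL library of set 3, which kept its PBS partner in the fit, the 10 estimates lay between -0.805 and -0.001. Dropping that PBS partner instead shifted the range the other way, to between -1.393 and -0.304. With the whole of set 3 dropped, the estimates lay between -1.056 and -0.242. All 10 were below 0 in each of these fits.

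The other genes of the pathway were read from a list of 35 kinases, adaptors, ubiquitin ligases, A20 partners, deubiquitinases, and further nuclear IκB proteins, all of which were tested. LPS against PBS called 18 of the 35 higher and 2 lower, where 18.3% and 20.2% of all genes were. *Traf1*, an adaptor of TNF receptors, rose from 1.87, 1.65, and 2.93 CPM to 114, 133, and 192 CPM (log2 fold change 6.09 ± 0.59, edgeR adjusted p = 1.56e-05). Its increase exceeded that of every NF-κB subunit and inhibitor. *Tnip3* and *Tnip1*, encoding proteins that bind A20, rose by 3.76 ± 0.58 and 3.35 ± 0.27 on the log2 scale (edgeR adjusted p = 0.000333 and 4.47e-06). *Map3k14*, encoding NIK, the kinase that starts the noncanonical pathway to *Nfkb2* processing, fell from 17.7, 21, and 32.3 CPM to 10.8, 13.5, and 12 CPM (log2 fold change -0.97 ± 0.28, edgeR adjusted p = 0.0157). *Tab1*, encoding a partner of the kinase TAK1, also fell (-0.83 ± 0.19, edgeR adjusted p = 0.00412). By group, 4 of 9 kinases, 8 of 13 TAB, TRAF, and ubiquitin ligase genes, and 5 of 9 A20 partners and deubiquitinases were called higher, as was *Bcl3*, 1 of the 2 other nuclear IκB genes, and neither of the 2 subunit turnover genes. With total-count scaling, 8 genes of the list and 46.5% of all genes were called lower.

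**Figure D5:**
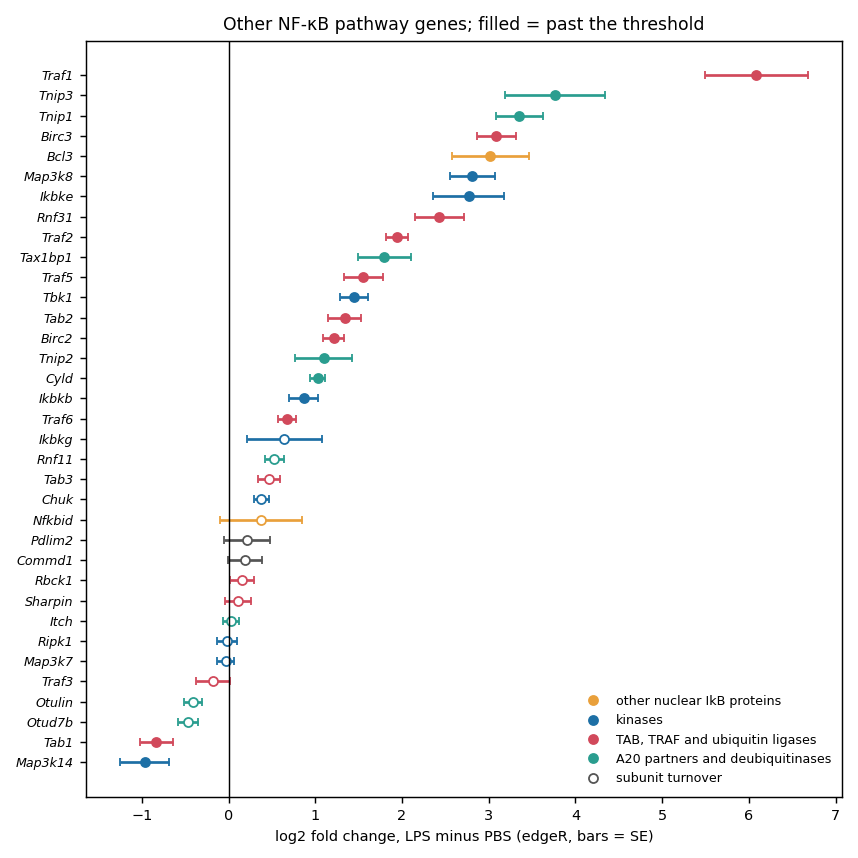
Log2 fold change with LPS (LPS minus PBS) of the 35 other NF-κB pathway genes, colored by group, with bars for the SE of the edgeR fit. Filled circles passed the threshold: 18 genes to the right, led by *Traf1*, and 2 to the left, *Map3k14* and *Tab1*.

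In the presence of 3′SL, LPS called 17 of the 35 higher and 3 lower, where 14.3% and 14.8% of all genes were, led by *Traf1* (4.24), *Tnip3* (2.69), and *Tnip1* (2.53), with *Map3k14* (-1.06), *Otud7b* (-0.82), and *Tab1* (-0.61) lower. 3′SL itself called none of the 35 with or without LPS by edgeR or DESeq2. At an unadjusted p under 0.05, 7 of the 35 passed without LPS, where 10.1% of all genes did, and 2 passed with LPS, where 6.95% of all genes did. Without LPS the lowest p-values were those of *Birc3* (0.72 ± 0.21, edgeR adjusted p = 0.338) and *Cyld* (0.28 ± 0.09, edgeR adjusted p = 0.358) among higher genes, and *Otulin* (-0.24 ± 0.10) and *Rbck1* (-0.21 ± 0.14) among lower ones. With LPS, *Traf2* (-0.36 ± 0.12) and *Traf5* (-0.52 ± 0.22) were lower, and *Map3k14* (0.51 ± 0.28) and *Chuk* (0.10 ± 0.09) higher, none past the threshold. The median of the 35 with LPS was -0.08, against -0.01 for all genes and -0.34 for the members. LPS raised all members but not all of the 35, so these medians do not compare like with like. The 3 genes of the list that LPS raised most, *Traf1*, *Tnip3*, and *Tnip1*, were at -0.71 ± 0.47, -0.46 ± 0.52, and -0.46 ± 0.25. *Birc2* and *Cyld*, also called higher with LPS, were at 0.04 and 0.07. In the interaction, 30 of the 35 were below 0 and 5 above it, none past the threshold, where 49.5% of all genes were above 0. The lowest p-values were those of *Birc3* (-1.01 ± 0.29, edgeR adjusted p = 0.646) and *Traf5* (-0.85 ± 0.31), and above 0 those of *Otulin* (0.31 ± 0.15) and *Rbck1* (0.22 ± 0.19). With the library set block, 4 of the list were called lower, where 1.29% of all genes were, *Birc3* among them (edgeR adjusted p = 0.00946).

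Across the 12 libraries, the profiles most like those of *Nfkbia* and *Nfkb1* were sought among the tested genes with reads in every library. Likeness was the root mean square difference of log2 CPM, each gene centered on its own mean. For *Nfkbia* these were *Gch1*, encoding GTP cyclohydrolase (difference 0.0752), *Xaf1* (0.144), and *Stat2* (0.162), where the median gene was at 1.86. For *Nfkb1* they were *Tapbpl* (0.0818), *Oas1c* (0.102), and *Cybb*, encoding a subunit of the phagocyte NADPH oxidase (0.108), where the median gene was at 1.40. *Gch1* averaged 16.4, 22.0, 226.0, and 175 CPM in the same order of conditions (PBS, 3′SL alone, LPS alone, and both), beside *Nfkbia* at 55.6, 79, 774, and 609 CPM. With LPS + 3′SL against LPS, *Gch1*, *Xaf1*, and *Stat2* were at -0.37, -0.20, and -0.02 on the log2 scale. *Tapbpl*, *Oas1c*, and *Cybb* were at -0.25, -0.17, and -0.30. These genes were picked for their likeness over the same libraries, so their changes are no separate test.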

How the data were processed

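Poly(A) RNA of BMDMs was sequenced from stranded TruSeq libraries. The deposited files hold whole-number read counts per gene, 1 file per library, made by the authors. The submitters' processing notes name FastQC, Trimmomatic, STAR, HTSeq, and DESeq2, without versions, and the genome build and the strand setting of counting are not given in the sources used here. Rows that name no gene held 33.23% to 37.06% of reads and were left out. Of 43626 gene identifiers, 42462 matched the GENCODE M21 annotation. Doses and the time of incubation are those the study gives for its RNA-Seq experiment. Conditions were taken from the labels, which carry no replicate number.

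Genes were filtered with filterByExpr, scaled with TMM (factors 0.7 to 1.3), and tested with edgeR 4.0.16 in R 4.3.3, in a fit over all 12 libraries with 1 mean per condition. Calls needed a Benjamini-Hochberg adjusted p under 0.05 and at least 1.5-fold. CPM are counts divided by the TMM-scaled library size. Alternatives were DESeq2 1.42.0, total-count scaling, other filters, no fold minimum, leaving out each library or library set, and the library sets as a block. The biological coefficient of variation was 0.31, and 0.133 with the sets. No library repeated another (lowest chi-square per gene between libraries of a condition 14.5).

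The members and gene lists were chosen with earlier results of these data known. The text names all members, from the pathway list the 3 called genes with the largest change in each direction or, for 3′SL comparisons without calls, the 2 with the lowest p in each direction, and the 3 genes most like *Nfkbia* and *Nfkb1*.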

Additional observations from a re-analysis of the deposited data

How the results depend on the processing

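Of 1896 values under alternatives, 1768 kept direction and call, or stayed near the reported value. The labels carry no replicate numbers, so no pairing by label was possible, and the library set block rests on sets found in the values. The 10 members were called higher with LPS, with or without 3′SL, under the alternatives run, except *Rela* in the settings given beside its values, and between 9 and 10 were called for LPS + 3′SL against 3′SL when 1 library was left out. Where calls changed, the cause was not tested.

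For LPS + 3′SL against LPS, members called lower numbered 2 with the library set block (0.762% of all genes), 2 with total counts added (0.566%), 2 without set 3 (0.535%), 3 with the block without set 3 (1.46%), 2 at an unadjusted p with the fold minimum kept (1.31%), and 3 with the block and no fold minimum (1.28%). For the interaction they numbered 3 with the block (1.29%), 1 with total counts added (0.482%), 7 with the block without set 3 (2.13%), 4 at an unadjusted p with the fold minimum kept (2.54%), and 4 with the block and no fold minimum (1.47%). For 3′SL against PBS, 1 member was called higher at an unadjusted p with the fold minimum kept (3.07%) and 1 with the block and no fold minimum (4.14%).

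In the pathway list, LPS against PBS called 8 genes lower with total counts (46.5% of all genes, and 51.7% with the block), 1 without set 1 (13.5%), 0 without set 2 (10.9%), 4 without a fold minimum (24.2%, and 31.6% with the block), and 1 to 2 when 1 library was left out. LPS + 3′SL against 3′SL called 10 higher (9.44%, and 10.6% with the block) and 6 lower (33.9%, and 41.3% with the block) with total counts, and 1 lower without set 2 (6.0%). For 3′SL against PBS, 3 were called higher with the block (1.98%), 2 with total counts added (1.27%), 1 with the block without set 3 (1.36%), 2 at an unadjusted p with the fold minimum kept, and 5 with the block and no fold minimum. LPS + 3′SL against LPS called 2 lower with the block without set 3 and 2 with the block and no fold minimum. The interaction called 4 lower with the block, 3 with total counts added, 5 with the block without set 3, 4 at an unadjusted p with the fold minimum kept, and 4 with the block and no fold minimum. Shares not repeated here are those given for the members in the same fit.

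Signs turned only for 3′SL against PBS. *Nfkbib* was 0.060 without set 2 (0.061 with the block). With 1 library left out, log2 fold changes ran from -0.061 to 0.898 for *Nfkbia*, -0.132 to 0.091 for *Nfkbib*, -0.22 to 1.03 for *Nfkbie*, -0.08 to 0.56 for *Nfkbiz*, and -0.65 to 0.24 for *Tnfaip3*. The inhibitor to subunit ratios were 0.882, 0.872, 2.06, and 1.93 with principal isoform lengths, and 2.43 (LPS) and 2.55 (LPS + 3′SL) with classical inhibitors only. With 3 libraries per condition, smaller differences may have been missed.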
